A study of Mus musculus with 186 samples.

Results

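The genes described here encode the subunits of the proteasome and its partner particles in single inner cells of mouse blastocysts. They were chosen by name: gene symbols that begin with Psma, Psmb, Psmc, Psmd or Psme followed by a number, without pseudogenes. Of the 55421 genes in the table, 44 carried such a name. A gene was tested when its TPM (an abundance divided by transcript length and scaled to the same total in each library) was 1 or more in 25% of the cells of at least 1 group. That left 41 proteasome genes among 11680 tested genes. The 3 that failed were Psma8, Psmb8 and Psmb11.

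The study sequenced RNA of single inner cells from CD-1 mouse embryos, freed of their outer layer by immunosurgery. Fresh embryos were taken at embryonic day E3.25 (19 cells), at E3.75 (22 cells) and at E4.0 (14 cells). Other embryos were taken at E2.75 and cultured for 16 or 24 hours in KSOM medium with LY294002 at 10 µM (here LY), which inhibits phosphoinositide 3-kinase, or with DMSO, its solvent. These gave 31 cells each for DMSO and LY at 16 hours, and 28 and 24 cells at 24 hours. The labels name no genetic change in any group. LY294002 also acts on other kinases, which limits LY as a model of loss of 1 pathway. An experiment is the set of cells with 1 group and 1 date in their labels, and it pooled several litters. E3.25, E3.75 and E4.0 had 2 experiments each and the 4 cultured groups had 3 each, 18 in all. Of the marker genes of the inner cell mass, all 5 were found. Their summed TPM lay between 244 and 1620 in each experiment. The 8 markers of the outer layer (trophectoderm) summed to 42 to 851, with the highest value in the 16-hour DMSO experiment of only 3 cells. There they exceeded the inner cell mass markers, whose sum was at most 423 in any 16-hour DMSO experiment. Krt8 (8.69) and Krt18 (8.30, as the mean of log2(TPM + 1) over cells) had their highest values in that experiment, which enters every comparison with 16-hour DMSO. The number of genes at a TPM of 1 or more was 3806 to 10220 per cell, with a median of 6584. TPM keeps no read depth, so the depth behind each value is unknown. By their date labels, all 16-hour experiments came later than all others, so culture time and date cannot be told apart there.

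The 26S proteasome degrades proteins that carry a ubiquitin chain. Its 20S core is a barrel of 4 stacked rings: the outer rings are built from 7 alpha subunits (Psma1 to Psma7), which gate the entrance, and the inner rings from 7 beta subunits (Psmb1 to Psmb7), of which Psmb5, Psmb6 and Psmb7 cut peptide bonds. The 19S regulatory particle caps the barrel. Its base holds 6 ATPases (Psmc1 to Psmc6) that unfold the substrate, and its lid removes the ubiquitin chain through Psmd14. The inducible subunits Psmb8, Psmb9 and Psmb10 replace Psmb5, Psmb6 and Psmb7 in the immunoproteasome of immune and interferon-treated cells. Below, an experiment's value is log2(TPM + 1) averaged over its cells. The libraries were primed from the 3′ end, whereas TPM corrects for the whole transcript's length, so levels of different genes are only roughly comparable. Among the members tested, 16 belong to the core, 17 to the regulatory particle (9 in the base and 8 in the lid), 3 are assembly chaperones of the base and 5 encode other caps that open the core.

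Proteasome genes are known to be raised together by the factor NRF1, product of Nfe2l1, which binds antioxidant response elements. The promoters below show which members hold the letters of that element and, for the alpha ring, which hold a CCAAT box. The sequences are RefSeq's on GRCm38.p6 and run from 250 bases before to 50 after each start site, and 38 promoters of 35 of the 41 members were matched. The letters TGACNNNGC, searched on both strands, were in 15.8% of the members' promoters (6 of 38) and in 12.4% of all 32851 promoters of this length. None of the 8 alpha-ring promoters held them. Windows of 29 bases are printed for 5 of the 6 genes with a match, with the matched letters in capitals, 5′ to 3′ on the strand that reads the motif. Psmd12, the sixth gene, had its match too near the end of the promoter for a full window.
Psmb5 (chr14:54618024-54618052, gene strand, minus): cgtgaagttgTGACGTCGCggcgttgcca
Psmb6 (chr11:70525338-70525366, gene strand, plus): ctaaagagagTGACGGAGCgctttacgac
Psmc6 (chr14:45329587-45329615, other strand, minus): gagcaatgccTGACTTAGCtactggctgg
Psmd9 (chr5:123228149-123228177, gene strand, plus): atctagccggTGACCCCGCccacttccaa
Psme4 (chr11:30771758-30771786, other strand, minus): gctcttctggTGACGCTGCagccgcagcg

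The CCAAT box, searched as CCAAT on both strands, was in 5 of the 8 alpha-ring promoters (62.5%), against 34.2% of the members' promoters and 37.4% of all promoters. The alpha-ring windows are shown because these genes varied together between experiments. For each gene with a match, the first on the gene's own strand is printed.
Psma1 (chr7:114276198-114276226, minus strand): cggagcttcctgCCAATcccacgttctca
Psma2 (chr13:14613176-14613204, plus strand): ggtgactctcctCCAATcagagcaaagaa
Psma3 (chr12:70974472-70974500, plus strand): accttagctcttCCAATaccagtttcagt
Psma6 (chr12:55384181-55384209, plus strand): gaccactaggtgCCAATggaattcctgag
Psma7 (chr2:180042644-180042672, minus strand): gcctgcctgtcgCCAATgcgcgctcgagt

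Psma7, which holds the box, was the steadiest alpha gene, and Psma1, which also holds it, was the least steady (values below). Of the other letters searched on both strands, CCGGAA (the core of sites of ETS factors) was in 47.4% of the members' promoters and 14.9% of all. The GC box GGGCGG was in 60.5% and 35.7%, and the E-box CACGTG in 10.5% and 7.15%. A match is a description of letters and not a measured site.

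The proteasome was expressed in every group. Its 41 genes together made up 0.744% to 1.65% of all TPM in an experiment, and 10 of them had a TPM of 1 or more in all 169 cells. The regulatory particle was found in nearly every cell, with each of its 17 genes in at least 91.7% of cells. Core genes ranged more widely, from 43.2% of cells for the inducible Psmb9 to 100% for Psma7, Psmb4 and Psmb6. By the mean over the 18 experiments, Psmb4 (10.13), a beta subunit, Psmb6 (9.67), a catalytic beta subunit, and Psmd4 (9.17), a ubiquitin receptor of the base, had the highest levels on the log2(TPM + 1) scale. Summed over its genes, the core had more TPM than the regulatory particle in all 18 experiments, from 0.599 to 1.03 on the log2 scale as the mean of a group. On the mean of log2(TPM + 1) over each particle's genes, the order depended on the group: the core stood above the regulatory particle by 0.45 in 16-hour DMSO, 0.30 in 16-hour LY and 0.14 at E4.0, and the difference was -0.27 at E3.75, -0.45 in 24-hour DMSO, -0.67 at E3.25 and -0.86 in 24-hour LY (means of 2 or 3 experiments). At E3.75 the experiments gave 0.51 and -1.04 and at E4.0 0.60 and -0.33, so at these stages their spread exceeded the difference. The same held in 24-hour DMSO, with -1.30, 0.08 and -0.13: without its first experiment the mean was -0.03. In 24-hour LY the mean was -0.51 without its first experiment, and E3.25 gave -0.34 and -0.99. All 6 experiments at 16 hours were above 0. Without the inducible subunits, whose means over the experiments lay under those of the other core genes, the core stood higher at E3.75 and in 24-hour DMSO as well. Its difference from the regulatory particle was then 0.42 (experiments from -0.43 to 1.26) and 0.19 (-0.71 to 0.67). At E3.25 it shrank to -0.16 (-0.47 to 0.15) and in 24-hour LY to -0.23 (-0.94 to 0.22). In each of these groups the experiments lay on both sides of 0.

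**Figure D1:**
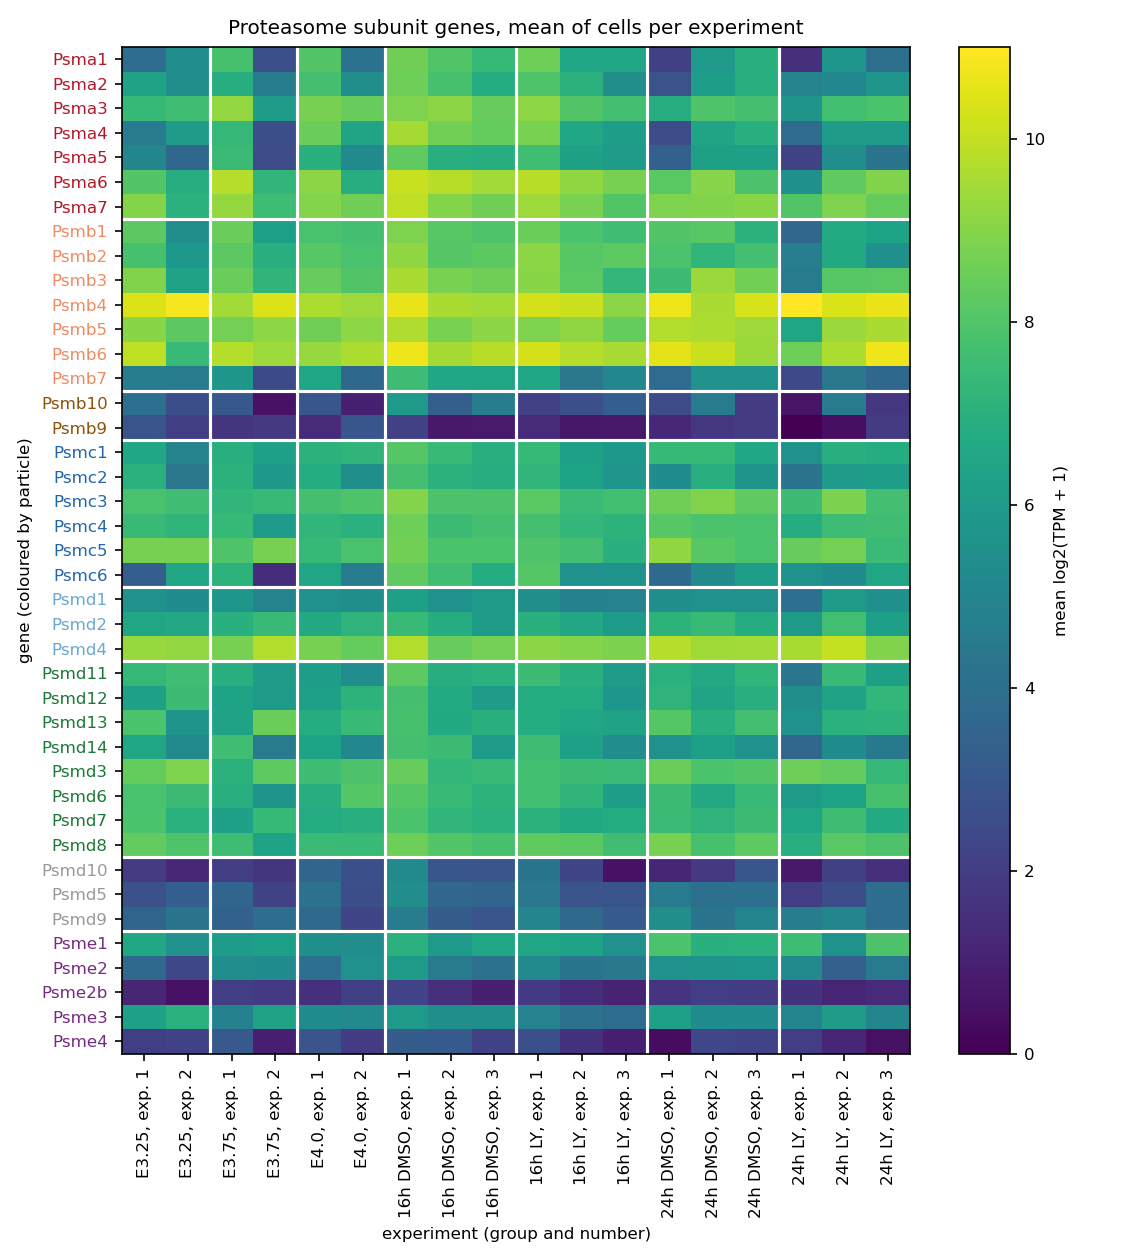
Mean log2(TPM + 1) of each of the 41 proteasome genes (rows, coloured by particle) in each of the 18 experiments (columns, grouped by stage or culture). Psma1, Psma2, Psma4, Psma5 and Psmc6 change from bright to dark between experiments of the same group, while Psmb4, Psmd4 and Psmc3 keep their shade.

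The alpha ring varied far more between experiments of the same group than the regulatory particle did. For Psma1, an alpha gene, the experiments gave 3.93 and 5.39 at E3.25, 7.81 and 2.67 at E3.75, and 8.05 and 4.20 at E4.0. In culture they gave 8.62, 8.002 and 7.37 (16 hours, DMSO), 8.56, 6.50 and 6.52 (16 hours, LY), 2.10, 5.91 and 7.00 (24 hours, DMSO), and 1.53, 5.79 and 4.05 (24 hours, LY). Experiments of 1 stage thus lay further apart than the stages did, and the 6 experiments at 16 hours were all above 6. Psma4, another alpha gene, followed a like course, with 4.50 and 6.03 at E3.25, 7.34 and 2.66 at E3.75, and 8.47 and 6.42 at E4.0. At 16 hours it stood at 9.51, 8.67 and 8.42 with DMSO and 8.80, 6.57 and 6.15 with LY. At 24 hours it stood at 2.51, 6.42 and 7.00 with DMSO and 3.86, 6.08 and 6.10 with LY. The same experiments were low for both genes: the second at E3.75 and the first of each arm at 24 hours.

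Measured as the standard deviation between experiments of 1 group, pooled over the 7 groups, the spread of Psma1 was 2.08, of Psma4 1.76 and of Psma5 1.61 on the log2(TPM + 1) scale. Psma2 (1.35), Psma6 (1.15) and Psma3 (0.963) followed, and Psma7 (0.72) was close to the median of 0.772 over the 1569 tested genes with a mean level of 5 or more. The alpha ring's median spread was 1.35. The beta ring had a median of 0.819, the ATPases 0.606, the lid 0.706 and the rest of the base 0.517. Of the core genes 9 of 16 had a spread over 1, against 2 of 17 regulatory genes (Psmc6 and Psmd14) and 26% of the tested genes with a mean level of 5 or more. With each experiment left out in turn, the core count was 6 to 10 and the regulatory count 1 to 3. The core count was 6 without the first 24-hour LY experiment of 7 cells. It was 4 against 1 when the log was taken after averaging the TPM of an experiment's cells.

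Within the cells, the alpha ring was low in a part of the cells of most experiments, while the lid kept a narrower band. The mean of the 7 alpha genes lay under the mean of the 8 lid genes in 55 of 169 cells. At E3.25 it did so in 15 of 19 cells (78.9%, exact Clopper-Pearson 95% interval 54.4% to 93.9%) and at E4.0 in 2 of 14 (14.3%, 1.78% to 42.8%). In 16-hour DMSO culture it did so in 0 of 31 cells (exact interval 0% to 11.2%). In 16-hour LY culture it did so in 5 of 31 (interval 5.45% to 33.7%). At 24 hours it did so in 12 of 28 cells with DMSO (42.9%, 24.5% to 62.8%) and in 15 of 24 with LY (62.5%, 40.6% to 81.2%). Experiments of 1 group disagreed. At E3.75 there were 0 of 15 cells in the first and 6 of 7 in the second, and at E4.0 there were 0 of 9 and 2 of 5. The 24-hour DMSO experiments gave 5 of 6, 4 of 11 and 3 of 11, and those of 16-hour LY 0 of 11, 4 of 14 and 1 of 6. These intervals cover counting error over cells only, and cells of 1 experiment share its collection and handling.

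**Figure D2:**
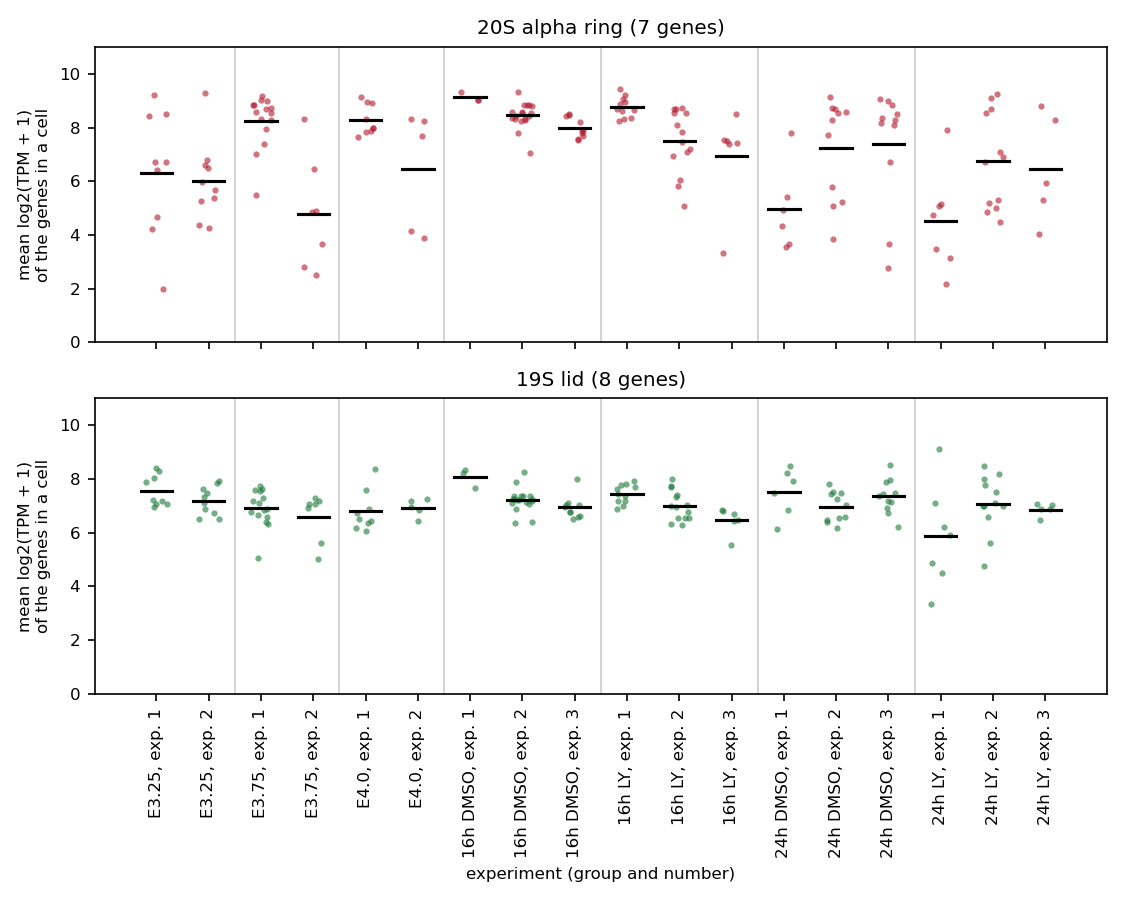
Mean log2(TPM + 1) of the 7 alpha-ring genes (top) and the 8 lid genes (bottom) in each cell (points), by experiment, with the mean of the cells as a bar. Alpha-ring values of single cells run from 1.99 to 9.44, and the bars of experiments of 1 group lie far apart at E3.75, E4.0 and 24 hours; lid bars lie between 5.87 and 8.07.

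The regulatory particle held most of the steadiest members, though the lowest spread among the 41 tested members was that of the weakly expressed Psme2b (0.388). Psmd4, the ubiquitin receptor, had a spread of 0.439, and its experiments ran only from 8.38 to 10.0. Psmc4 (0.441), Psmd7 (0.445) and Psmc3 (0.454) were as even. Psmc4 and Psmc3 are ATPases of the base and Psmd7 pairs with the deubiquitinase Psmd14 in the lid. The exception was Psmc6, an ATPase whose spread of 1.70 was closer to that of the alpha ring. It stood at 3.33 and 6.53 at E3.25, 7.13 and 1.43 at E3.75, and 6.49 and 4.67 at E4.0. Psmd14 (spread 1.06) was the most variable lid gene, with experiments from 3.64 to 7.74.

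The beta ring was divided. Psmb3, a structural subunit, had a spread of 1.24, the catalytic Psmb7 1.23 and the structural Psmb1 1.12. Psmb2 (0.751), Psmb5 (0.81) and Psmb6 (0.819) lay near the median of well-expressed genes, and Psmb4 was lower at 0.538. Psmb4 is a structural subunit, and its experiments ran from 9.08 to 11.13. For Psmb7, the lowest of the beta ring with a mean of 4.99, the E3.75 experiments gave 5.83 and 2.47 and those at E4.0 6.47 and 3.71, the order seen for Psma1.

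The assembly chaperones and most activators stood at low levels. Among the chaperones, which hold ATPases of the base together before the lid joins, Psmd9 had a mean of 4.01 over the experiments and Psmd5 of 3.46. Psmd10 was found in 96 of 169 cells. Of the activators, the PA28 subunit Psme1 had a mean of 6.46 and its partner Psme2 4.74. Psme3, which forms its own nuclear cap, stood at 5.43. Psme4, the single-chain cap PA200, stood at 1.97 and was found in 108 of 169 cells. Psme4 gave 3.23, 3.14 and 2.19 in 16-hour DMSO and 2.68, 1.59 and 0.98 in 16-hour LY. The arms overlapped, and on the shared dates LY minus DMSO was -0.54, -1.55 and -1.21.

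The likeness between members was also measured over the 169 cells, as Spearman's rho of the deviations of 2 genes from their experiment's mean. The median rho was 0.458 over the 21 pairs of alpha genes, 0.26 over the 28 pairs of lid genes and 0.0412 over the 56 pairs of an alpha with a lid gene. Psma4 with the ATPase Psmc6 (0.631) was the closest pair of different particles. The most negative pair was Psma6 with the lid gene Psmd3 (-0.374). Psme2 with Psme2b reached 0.819, but these are near-identical copies that can share reads, and their values are uncertain. The annotated Psme2b transcript is 837 bases long, which is the whole of its gene span on chromosome 11, with no intron. Values of 1 cell share a library, so these correlations are descriptions.

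The alpha ring's level moved with measures of the whole library. Over the 18 experiments its mean had a Pearson r of -0.856 (Spearman's rho -0.808) with the GC content of the library, taken as the mean GC of the transcripts of all other tested nuclear genes weighted by TPM. Without the 2 experiments farthest from the median GC, r was -0.827 over 16. For the lid r was -0.18 (rho -0.0609), and -0.334 without those 2. The base ATPases (r -0.568, rho -0.645) and the beta ring (r -0.488, rho -0.593) lay between. The alpha ring also moved with the number of genes detected (r 0.757, rho 0.732). The beta ring (r 0.77), the base ATPases (r 0.756) and the lid (r 0.695) did so too, so this was not particular to the alpha ring. With the mitochondrial share of TPM the alpha ring gave r 0.754 (rho 0.692). There the base ATPases gave r 0.403, the beta ring 0.367 and the lid 0.0433. Without the 2 experiments farthest in genes detected, r was 0.682 for the alpha ring and 0.472 for the lid. Library GC lay between 50.1% and 53.03%. The second E3.75 experiment, low for the alpha ring, was at 52.9%, and its partner at the same stage at 50.3%. Among the 41 members, spread went with the GC content of the gene's own transcript, with r -0.503 (rho -0.501). The 10 members under 45% GC, Psma1, Psma2, Psma3, Psma4 and Psmc6 among them, had a median spread of 1.12, against 0.698 for the 19 at 50% or more. Over the 1558 genes of mean level 5 or more with a known transcript r was -0.29. Spread did not follow transcript length among the members (r -0.0446). The points share libraries and base composition, so no p is given, and the part of library composition in the alpha ring's spread was not tested apart from the fits with library GC given below.

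**Figure D3:**
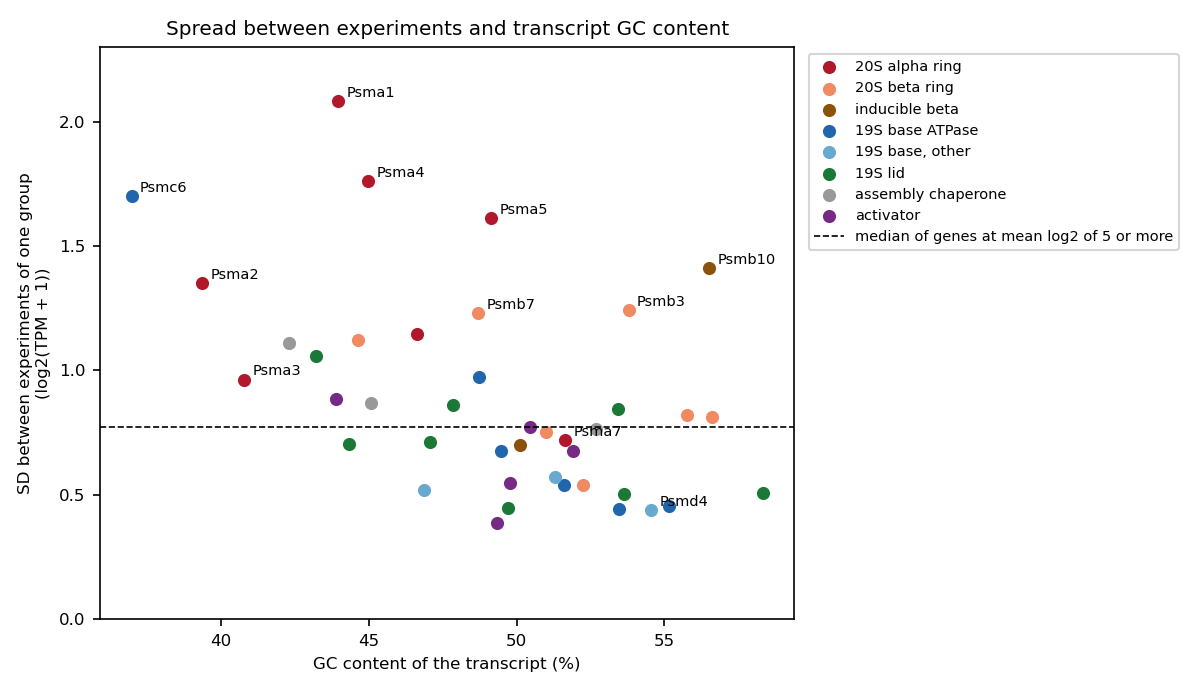
Standard deviation between experiments of 1 group (y axis, log2(TPM + 1)) against GC content of the transcript (x axis, %) for each of the 41 proteasome genes, coloured by particle; the dashed line is the median (0.772) of the 1569 tested genes of mean level 5 or more. Psma1, Psma4 and Psmc6 lie at the upper left, under 45% GC, and Psmd4 at the lower right; Psma5 and Psmb10 are high at greater GC content.

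The inducible subunits differed: Psmb8 was not found, Psmb9 was low, and Psmb10 was found in 48.4% to 80.6% of the cells of each group. Psmb8, the inducible form of Psmb5, was listed at a TPM of 0 in all 169 cells, while Psmb5 itself was found in 168. A count of 0 of 169 allows a share of up to 1.78% by the limit of 3 cells (exact upper bound 2.16%). This limits the cells in which Psmb8 was found and not those that express it, since the read depth is unknown. Psmb8 overlaps Gm20496 on the opposite strand. Psmb9, the inducible form of Psmb6, was found in 12 of 19 cells at E3.25 (63.2%, exact 95% interval 38.4% to 83.7%) in 15 of 28 cells with DMSO at 24 hours (53.6%, 33.9% to 72.5%) and in 5 of 24 with LY (20.8%, 7.13% to 42.2%). These intervals cover counting error over cells and do not compare the conditions. By experiment, Psmb9 at 24 hours gave 1.27, 1.72 and 1.91 with DMSO and 0, 0.44 and 1.90 with LY, and the arms overlapped. Its means were low throughout, from 0 to 2.96 in an experiment. Psmb9 (chr17:34181987-34187764, GRCm38, minus strand) overlaps Tap1 on the opposite strand. These libraries keep no strand, so reads from the stretch that the 2 genes share cannot be told apart by strand. Psma4, Psma5, Psmb7, Psmc3 and Psme1, among others, also overlap a gene on the opposite strand. Psmb10, the inducible form of Psmb7, was found in 25 of 31 cells with DMSO at 16 hours (80.6%, 62.5% to 92.5%) and in 15 of 31 with LY (48.4%, 30.2% to 66.9%). Its experiments gave 5.96, 3.31 and 4.66 with DMSO and 2.11, 2.69 and 3.27 with LY, so the arms did not overlap. At a TPM of 5 or more, the shares with Psmb10 were 54.8% with DMSO and 41.9% with LY. The thymus subunit Psmb11 and the germ-cell alpha subunit Psma8 were each found in 2 of 169 cells (1.18%, 0.144% to 4.21%).

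**Figure D4:**
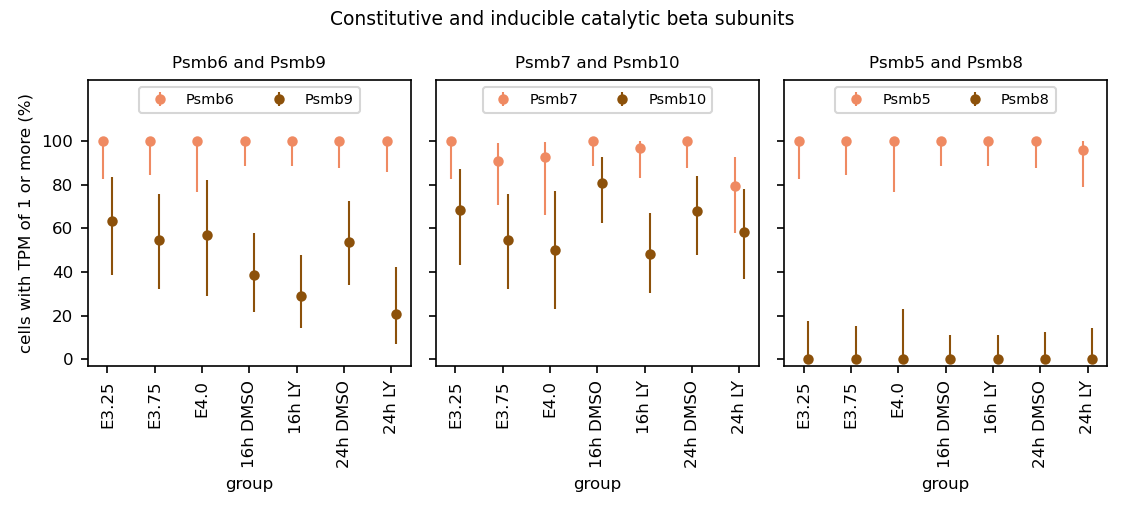
Share of cells with a TPM of 1 or more (y axis, %) for each catalytic beta subunit and its inducible counterpart in the 7 groups, with exact 95% binomial intervals over cells. Psmb5 and Psmb6 are found in 95.8% to 100% of the cells of each group, Psmb9 in 20.8% to 63.2%, Psmb10 in 48.4% to 80.6%, and Psmb8 in none.

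The 9 comparisons of groups asked which members changed with stage, culture time or LY. No member passed the threshold in any of them: limma's adjusted p (Benjamini-Hochberg over 11680 genes, threshold 0.05) was 0.251 at the smallest. The share of all tested genes called in each comparison was 0% for E3.75 against E3.25, 1.41% for E4.0 against E3.75 and 1.67% for E4.0 against E3.25. It was 0% for LY against DMSO at 16 hours, 0% at 24 hours and 0% for the difference between them. It was 0.00856% for DMSO at 24 against 16 hours, 0.0514% for 16-hour DMSO against E3.25 and 0% for 24-hour DMSO against E3.75. At an unadjusted limma p under 0.05, the members numbered 1, 0 and 1 of 41 in the first 3, where 4.59%, 9.49% and 12.9% of all tested genes passed. They numbered 1, 2 and 1 of 41 for LY at 16 hours, LY at 24 hours and their difference, beside 5.49%, 5.27% and 2.49% of all genes. They numbered 6, 10 and 3 of 41 in the last 3 comparisons, beside 10.9%, 13.7% and 3.17%. The replicates are experiments of separate dates, and with 2 or 3 of them a group the fit had 11 residual degrees of freedom.

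Between the fresh stages, the largest difference relative to its error belonged to an activator. Psme2, a subunit of the PA28 cap that opens the core without ATP, stood at 3.82 and 2.35 at E3.25, 5.41 and 5.29 at E3.75, and 4.03 and 5.58 at E4.0. E3.75 and E4.0 experiments were all above those of E3.25. The difference was 2.27 ± 0.818 (SE; limma p = 0.0113, adjusted p = 1) for E3.75 against E3.25, and 1.72 ± 0.818 (p = 0.048, adjusted p = 0.382) for E4.0 against E3.25. Leaving out 1 experiment, the second of E3.25 or the second of E4.0, brought the latter to 0.985 or 0.942. Its near copy Psme2b differed by 1.07 ± 0.587 (adjusted p = 1) at E3.75. The lid gene Psmd8 was at 8.37 and 7.98 at E3.25 and at 7.60 and 6.37 at E3.75, a difference of -1.19 ± 0.649 (adjusted p = 1), or -0.578 without the second E3.75 experiment.

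For E4.0 against E3.25 no gene of the alpha ring or the lid passed the test, and the 2 sets were not tested against each other. All 7 alpha genes had a difference above 0, with a median of 1.07, and 7 of 8 lid genes had one below 0, with a median of -0.44. Over all tested genes 60.7% were above 0, with a median of 0.20. With library GC as a covariate, 4 of 7 alpha genes were above 0 with a median of 0.02, and the lid's median was -0.43. Without the first E4.0 experiment 4 of 7 alpha genes were above 0, with a median of 0.609. Psmd11, a scaffold of the lid, gave 7.31 and 7.65 at E3.25 and 6.16 and 5.37 at E4.0, and the difference was -1.71 ± 0.842 (limma adjusted p = 0.404). Psme3, the nuclear activator PA28 gamma, gave 6.30 and 7.05 at E3.25 and 5.35 and 5.27 at E4.0, and the difference was -1.36 ± 0.708 (adjusted p = 0.439). From E3.75 to E4.0 the smallest p values were those of Psma4 (2.44 ± 1.40, adjusted p = 0.65), the lid gene Psmd6 (1.17 ± 0.757, adjusted p = 0.723) and the base chaperone Psmd10, also called gankyrin (1.31 ± 0.998, adjusted p = 0.793). For Psma4 the E3.75 experiments lay further apart than the difference itself, which was 0.103 without the second of them. For Psmd6 it was 0.54 without that experiment.

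By the mean of a group, the alpha ring was highest in 16-hour DMSO (8.53) and next in 16-hour LY (7.73). Single fresh experiments reached 8.26 at E3.75 and 8.29 at E4.0, within the range of the 16-hour experiments. Against E3.25, 16-hour DMSO had all 7 alpha genes above 0, with a median difference of 2.32, and the beta ring 6 of 7 with a median of 1.36. The lid had 2 of 8 above 0 and a median of -0.08. Of all tested genes 66.6% were above 0, with a median of 0.32. Psma4 differed by 3.60 ± 1.28 (limma p = 0.0103, adjusted p = 0.251), Psma6 by 2.32 ± 0.896 (adjusted p = 0.275) and the ATPase Psmc1 by 1.73 ± 0.681 (adjusted p = 0.281). Psma6 gave 8.07 and 6.85 at E3.25 and 10.08, 9.80 and 9.46 in 16-hour DMSO, with no overlap. Psmc1 gave 6.61 and 4.92 against 8.12, 7.44 and 6.95, also with no overlap, and without the second E3.25 experiment its difference was 0.889. The alpha ring's median was 1.20 with library GC as a covariate, 1.26 with genes detected as a covariate, and 0.81 when the log was taken of the mean TPM, and in each of these fits all 7 genes remained above 0.

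DMSO culture at 24 hours, set against the same 16-hour DMSO experiments, gave differences below 0 for all 7 alpha genes, with a median of -2.07. The lid was evenly divided, with 4 of 8 genes on either side and a median of 0.01. Over all tested genes 69.7% were below 0, with a median of -0.29. Psma4 differed by -3.56 ± 1.14 (limma p = 0.00531, adjusted p = 0.336), Psma2 by -2.45 ± 0.928 (adjusted p = 0.381) and Psmc6 by -2.56 ± 1.11 (adjusted p = 0.41). Psma2 gave 8.58, 7.81 and 6.83 at 16 hours and 2.82, 6.17 and 6.89 at 24 hours, so the 2 times overlapped in 1 experiment each. Psmc6 gave 8.31, 7.63 and 6.81 against 3.74, 5.21 and 6.11, with no overlap. Without the first 24-hour DMSO experiment of 6 cells, the median of the alpha ring was -1.21 (Psma4 -2.16, Psma2 -1.21), and with library GC as a covariate it was -0.46 with 6 of 7 below 0. Both comparisons share the 16-hour DMSO experiments, whose dates are later than those of the other groups.

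Against the fresh stage nearest in age, E3.75, 24-hour DMSO had a median difference of 0.48 in the regulatory particle and 0.29 in the core, beside 0.10 over all tested genes. Psmc3 differed by 1.29 ± 0.572 (limma p = 0.0355, adjusted p = 1), Psmd8 by 1.29 ± 0.593 (adjusted p = 1) and Psmc4 by 1.24 ± 0.578 (adjusted p = 1). Psmc3, an ATPase, gave 7.25 and 7.43 at E3.75 and 8.61, 8.93 and 8.33 in culture, and the values did not overlap. Psmc4 gave 7.35 and 6.08 against 8.16, 7.88 and 7.83, again without overlap. Without the second E3.75 experiment the difference was 0.605 for Psmc4 and 0.672 for Psmd8. All 3 genes belong to the regulatory particle. Pooled over the 7 groups their spread was small (Psmc3 0.454, Psmd8 0.505 and Psmc4 0.441). At E3.75 itself Psmd8 gave 7.60 and 6.37, so for Psmd8 and Psmc4 the experiments of that stage lay about as far apart as the difference.

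With LY most members stood lower than with DMSO on log2(TPM + 1) averaged over cells, as did most genes of the cell. At 16 hours 39 of 41 members had a difference below 0, with a median of -0.533, where 76.4% of all tested genes were below 0 with a median of -0.33. At 24 hours 38 of 41 were below 0, with a median of -0.525, beside 67.2% and -0.20 over all tested genes. Fewer genes were detected in the LY experiments at 16 hours (8303, 6384 and 5809 on average per cell) than in their DMSO partners of the same date (9995, 7156 and 7102). At 24 hours the LY experiments (4556, 6389 and 5373) were also below their DMSO partners (5726, 6668 and 6969) on each date. With genes detected as a covariate, 22 of 41 members were above 0 at 16 hours with a median of 0.03, and 11 of 41 at 24 hours with a median of -0.20. Without the 16-hour DMSO experiment of 3 cells, 12 of 41 were above 0 at 16 hours, with a median of -0.27.

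LY and DMSO arms were collected on 3 shared dates per culture time. The members had a median level of 6.73, against 1.70 for all tested genes, so shares of the 2 sets, here and above, compare genes of unlike level. The part of level in these shares was not tested. LY was lower on all 3 dates at 16 hours for 27 of 41 members (65.9%), where 35.7% of all tested genes were. Of the core 11 of 16 and of the regulatory particle 12 of 17 were among them, so the 2 particles had like shares at 16 hours. At 24 hours it was 15 of 41 members (36.6%) beside 22.4% of all tested genes, with 9 of 16 core and 3 of 17 regulatory genes, a gap that was not tested. The 12 members lower on all 6 dates were Psma1, Psma5, Psma7, Psmb1, Psmb3, Psmb7, Psmb9, Psmb10, Psmc3, Psmc4, Psmd5 and Psmd14. They were 29.3% of the members beside 8.71% of all tested genes. Of these 8 belong to the core, 3 to the regulatory particle and Psmd5 is a chaperone of the base. Some of the differences were almost 0. Psmb9 had -0.004 and -0.044 at 16 hours and -0.015 at 24 hours. Psma1 (-0.058), Psma7 (-0.071), Psmb10 (-0.071) and Psmd5 (-0.076) were also near 0 on a date, so their place in the list rests on small values.

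**Figure D5:**
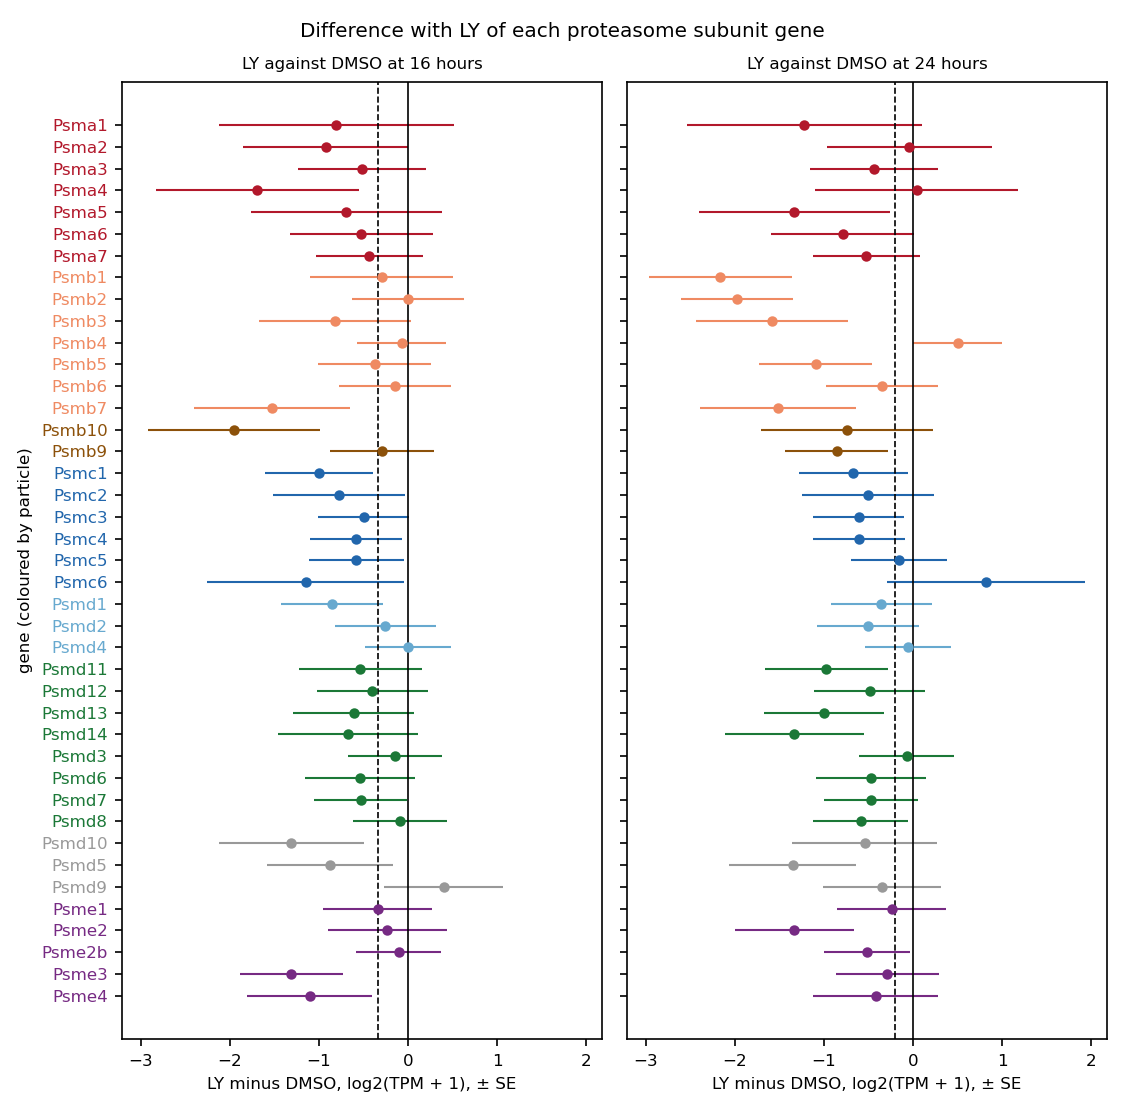
Difference between LY and DMSO, with its standard error from limma, for each of the 41 proteasome genes at 16 hours (left) and 24 hours (right), on the log2(TPM + 1) scale; the dashed line is the median of all tested genes (-0.33 and -0.20). Most points lie below 0 at both times, and the points farthest to the left are Psmb10 and Psma4 at 16 hours and Psmb1 and Psmb2 at 24 hours.

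The members with the smallest p for LY at 16 hours were Psme3, Psmb10 and Psmb7. Psme3 gave 5.89, 5.46 and 5.47 with DMSO and 4.88, 4.13 and 3.88 with LY, with no overlap, a difference of -1.31 ± 0.578 (limma p = 0.0346, adjusted p = 0.854). Psmb10 differed by -1.95 ± 0.968 (-1.29 without the DMSO experiment of 3 cells) and Psmb7 by -1.53 ± 0.875, both with an adjusted p of 0.854. Psmb7, a catalytic subunit with trypsin-like activity, gave 7.59, 6.54 and 6.46 with DMSO and 6.49, 4.36 and 5.15 with LY, and the highest LY value lay just above the lowest DMSO value. Psmb7 overlaps Nek6 on the opposite strand.

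At 24 hours the smallest p values lay in the beta ring. Psmb2 gave 7.90, 7.22 and 7.71 with DMSO and 4.69, 6.69 and 5.54 with LY, with no overlap, a difference of -1.97 ± 0.629 (limma p = 0.00509, adjusted p = 0.899). Psmb1 gave 7.997, 8.16 and 7.07 with DMSO and 3.64, 6.71 and 6.39 with LY, a difference of -2.16 ± 0.801 (adjusted p = 0.899). By date Psmb1 differed by -4.36, -1.45 and -0.68, and without the first LY experiment, of 7 cells, the difference was -1.19. Both are beta subunits without catalytic activity. Psme2 gave 5.63, 5.69 and 5.77 against 5.25, 3.38 and 4.48, a difference of -1.33 ± 0.668 (adjusted p = 0.899). For Psme2 the difference was 0.236 on log2 of the mean TPM and 0.28 in cells of run 1, the opposite direction, and -0.835 without the second LY experiment. At 16 hours the differences with LY were -0.00122 for Psmb2, -0.30 for Psmb1 and -0.23 for Psme2. The test of the difference between the LY effects at 24 and 16 hours gave -1.97 ± 0.890 for Psmb2 (limma p = 0.0383, adjusted p = 1), -1.87 ± 1.13 for Psmb1 (-0.899 without the first 24-hour LY experiment) and 1.97 ± 1.58 for Psmc6 (adjusted p = 1 for both).

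The rest of the pathway, taken as 33 genes for core assembly, remaining 19S parts, deubiquitinases, shuttle factors, ubiquitin itself and control of proteasome genes, also had 0 genes past the threshold in all 9 comparisons. At an unadjusted limma p under 0.05 they numbered 2 of 33 for E3.75 against E3.25, beside 4.59% of all tested genes. They numbered 1 for E4.0 against E3.75 (9.49% of all tested genes) and 5 for E4.0 against E3.25 (12.9%). For DMSO at 24 against 16 hours there were 3 (10.9%), and for 16-hour DMSO against E3.25 there were 6 (13.7%). In the other 4 comparisons there were 0, beside 2.49% to 5.49% of all tested genes. Nfe2l1 was found in 89.3% of cells, with experiments from 1.72 to 4.47, and its differences ran from -0.70 ± 0.768 (16-hour DMSO against E3.25, limma adjusted p = 0.702) to 0.44 ± 0.687 (DMSO at 24 against 16 hours, adjusted p = 0.887). Pomp, the maturation factor of the core, was picked out after its values were seen. It differed by 3.12 ± 1.04 between 16-hour DMSO and E3.25 (limma adjusted p = 0.232), in the direction of the alpha ring. Its experiments gave 7.36 and 3.09 at E3.25 and 8.72, 8.15 and 8.14 in 16-hour DMSO. The E3.25 experiments thus lay further apart than the difference itself.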

How the data were processed

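The authors deposited TPM values for 170 single-cell libraries, each matched to 1 sample by its title; 16 further samples were not analysed here. The submitters' processing notes name RSEM 1.3.3, STAR 2.7.9a, cutadapt 2.9 and bcl2fastq 2.20.0, and the build mm10; which gene annotation was used is not given in the sources. Per the labels' protocols, cDNA was primed at the 3′ end, amplified and made into libraries with Nextera XT, which do not keep strand. A pair of E3.25 columns that repeat a cell title (r = 0.824 across genes, highest with another cell 0.783) was averaged, leaving 169 cells; a pair in 24-hour LY (0.594, other 0.725) was kept apart. All cells were kept; doublets were not called, as each library holds 1 cell per the labels.

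For each experiment log2(TPM + 1) was averaged over cells, which mixes how many cells express a gene with how much. A difference on this scale understates the change of low genes. The 92 spike-in sequences were left out. One limma model (version 3.58.1, R 4.3.3; lmFit, then contrasts.fit, then eBayes with its trend option) covered the 7 groups, with Benjamini-Hochberg adjustment over the 11680 tested genes of each comparison. The fit was tested on simulated data. The LY and DMSO arms share date labels, which pair them; the deviations of same-date arms correlated at 0.393, 0.121 and 0.317 at 16 hours and at 0.231, 0.12 and 0.0732 at 24 hours.

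The members, gene lists and tests were chosen with earlier results of these data known. In each comparison the text names every member past the threshold and the 3 members with the smallest p; the rest stand as counts and ranges. The pathway list is given by counts, and Nfe2l1 always. Transcript lengths, GC content and gene positions are those of GENCODE M21 (GRCm38), promoters those of RefSeq.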

Additional observations from a re-analysis of the deposited data

Results flagged for a closer look

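Psmc6, the ATPase of the 19S base with the widest spread in the regulatory particle, was lower with LY on all 3 dates at 16 hours (LY minus DMSO -0.22, -2.07 and -1.16) and higher on all 3 dates at 24 hours (1.93, 0.13 and 0.41). The difference between the 2 effects was 1.97 ± 1.58 on the log2(TPM + 1) scale (limma p = 0.224, adjusted p = 1), so it was picked out by its signs and not by the test.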

How the results depend on the processing

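No alternative brought a proteasome gene past the threshold: the count was 0 in all 172 combinations of a comparison and an alternative, which were experiments left out in turn (0 to 0), other pseudocounts, scalings, filters, cells of 1 sequencing run, and genes detected or library GC as covariates. Library GC and the alternatives for the spread were chosen after seeing the data. With the date as a replicate block, which pairs the LY and DMSO arms, the count was 0 in the LY comparisons as well, and the block changed no call of a named gene. No named gene was called in any fit, so a value could change in direction and size only. Some sizes moved much: for E4.0 against E3.75 Psma4 went from 2.44 to 0.103 without the second E3.75 experiment. Of the single genes named, 513 of 516 values kept their direction. The cause was not tested for the 3 that reversed. In cells of run 2 Psmd6 differed by -0.17 between E4.0 and E3.75, and for LY at 24 hours Psme2 differed by 0.236 on log2 of the mean TPM and by 0.28 in cells of run 1.

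The number of core genes with a spread over 1 was 4 on log2 of the mean TPM and 3 with a pseudocount of 10, and lay between 6 and 10 with 1 experiment left out. For the regulatory particle it was 8 in cells of run 1 (core 12) and 3 in cells of run 2 (core 9), 1 on log2 of the mean TPM and 1 with a pseudocount of 10, and between 1 and 3 with 1 experiment left out. The median difference over the members for E4.0 against E3.75 was -0.474 in cells of run 2. At a TPM of 5 or more, 5 of 28 shares of cells fell outside the interval of the share at 1 or more: Psmb9 at E3.75 (27.3%), in 24-hour DMSO (32.1%) and in 16-hour DMSO (5 of 31 cells), and Psmb10 at E3.75 (31.8%) and in 16-hour DMSO (54.8%). The cause was not tested. With genes detected as a covariate, the median over members was 0.13 in place of 0.73 for 16-hour DMSO against E3.25, and 0.45 in place of -0.23 for DMSO at 24 against 16 hours.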
